A study of Mus musculus with 12 samples.

Results

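Gene expression in the resting hippocampus was compared between mutant mice, in which the transcription factors CREB and CREM were lost, and control mice, both after an injection of saline. The comparison held the 3 mutant saline and 3 control saline arrays of a study of 12 arrays, taken by the genotype and treatment named in the array titles, and all 12422 probe sets of the Affymetrix MG-U74A array other than 66 control probe sets. Mutant saline and control saline animals were littermates of both sexes, 5 to 6 weeks old, that were housed alone, handled for 5 days, injected into the peritoneum with saline and killed 1 hour later. Rest here means this state, 1 hour after a saline injection and without kainate. No uninjected animals were measured, so these levels can include a response to the injection. The mutant kainate and control kainate groups, with 3 arrays each, received 20 mg/kg of kainate, a glutamate receptor agonist that evokes seizures, and appear here as arrays of other animals of the same genotypes. Each array held total hippocampal RNA pooled from 3 animals, so that each group rested on 9 animals and the unit of replication was the pool. The labels call the animals mutant and control. Which alleles they carried, in which cells the genes were disrupted and whether a Cre driver was used are not given in the sources used here.

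CREB, the product of Creb1, and CREM, the product of Crem, are related leucine zipper factors that bind the cAMP response element, whose full form is TGACGTCA and whose shorter form is TGACG. In neurons, kinases activated by cAMP and calcium phosphorylate CREB, which then raises the transcription of immediate early genes such as Fos and the Nr4a nuclear receptors, and of later effector genes. A whole hippocampus holds pyramidal, granule and inhibitory neurons beside astrocytes, oligodendrocytes, vessels and microglia, the resident macrophages of the brain. In such bulk RNA, more cells of a type and more RNA of its genes per cell cannot be told apart.

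The deposited values are log2 expression levels, so that a difference of 1 is a 2-fold change, and differences are given as mutant saline minus control saline with their standard error (SE, 3 arrays per group). Levels correlated at 0.990 to 0.998 between pairs of the 6 saline arrays. The replicate 1 arrays shared a deviation from their groups. After each group mean was subtracted, replicate 1 arrays of different groups had correlations of 0.368 to 0.848, while a replicate 1 array set against a replicate 2 or 3 array of another group had -0.722 to -0.00779. The component that set them apart held 79.8% of the within-group variance of the saline arrays. Same-numbered mutant saline and control saline arrays deviated together (correlations of 0.583 to 0.848). Replicate 2 and 3 arrays crossed between the 2 saline groups did so nearly as much (0.522 to 0.568). These correlations thus set replicate 1 apart but do not show that a number pairs arrays. Results are also given with the replicate number as a block where the block matters. As a check of the tissue, 0 of 5 CA1 pyramidal markers, 3 of 7 CA3 and CA2 markers and 4 of 10 dentate granule markers lay below the median level of the array, against 5 of 6 striatal and thalamic markers. These counts describe levels only, since each marker has its own probes. Choroid plexus markers varied between pools, with summed log2 levels of 10.77 to 12.41 in mutant saline and 11.54 to 12.13 in control saline arrays. The log2 difference between 3′ and 5′ control probe sets, a sign of RNA integrity, was -0.07 to 0.09 in mutant saline and -0.05 to 0.01 in control saline arrays for Gapdh, and for actin 1.64 to 1.86 in mutant saline and 1.65 to 1.98 in control saline arrays.

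The targeted genes were dim on this array, and under saline their groups overlapped. The brightest of the 3 Creb1 probe sets, at percentile 45 of the mean levels, had log2 levels of 3.94, 3.85 and 3.82 in mutant saline against 4.01, 3.86 and 3.82 in control saline arrays. The other Creb1 probe sets, at percentiles 26 and 32.2, differed by -0.03 (SE 0.10) and -0.02 (SE 0.14) on the log2 scale. For Crem, the brighter probe set (percentile 50.5) stood at 4.33, 4.21 and 4.26 in mutant saline against 4.45, 4.32 and 4.26 in control saline arrays, and the dimmer one (percentile 22.4) differed by -0.16 (SE 0.10). The groups overlapped for all 5 probe sets, and the adjusted p was 1 for each. It is not known whether these probe sets read the disrupted stretches of the genes, so their levels check neither the labels nor the loss of the proteins. In the kainate arrays both Crem probe sets were lower in mutants with no overlap and without passing, the brighter by -0.51 (adjusted p = 0.0889) and the dimmer by -0.34 (adjusted p = 0.512). The brightest Creb1 probe set was also lower there with a bare lack of overlap (-0.19, adjusted p = 0.53), and the other Creb1 probe sets overlapped. Its log2 levels were 3.85, 3.80 and 3.87 in mutant kainate against 3.88, 3.87 and 4.34 in control kainate arrays. The 4.34 came from control kainate replicate 3, an array that stood apart, as described below.

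In limma, 17 probe sets passed an adjusted p of 0.05 under saline, which is 0.137% of those tested, 13 of them higher in mutants (0.105%) and 4 lower (0.0322%). They stood for 13 genes with a single symbol and 4 probe sets whose annotation gives several symbols. All 3 mutant saline arrays lay above all 3 control saline arrays for 478 probe sets (3.85%) and below them for 402 (3.24%). Differences of at least 1 on the log2 scale were found for 24 probe sets higher in mutants, 21 of them with groups that did not overlap, and for 14 lower, 11 of them with no overlap. The median difference over all probe sets was -0.03 on the log2 scale and the median SE 0.13, so the calls were few and large. An unadjusted p under 0.05 was reached by 319 probe sets, where 621 would be expected by chance. That count depended on the arrays fitted: it was 554 without control kainate replicate 3, 609 in the 6 saline arrays alone, 2187 with array weights and, in fits chosen after seeing the data, 1511 in those 6 with the replicate block and 1286 in the 4 saline arrays of replicates 2 and 3. Control kainate replicate 3 stood apart, with an interquartile range of log2 levels of 3.74, against 4.40 to 4.61 on the other arrays, and the lowest array weight (0.0321). The count of calls was 30 with the replicate number as a block (21 higher, 9 lower), of which 16 were among the 17, and 38 (23 higher, 15 lower) with a term that set the replicate 1 arrays apart. With the arrays of replicates 2 and 3 alone 2 probe sets passed, H1f2 and Gfap, and the other 16 of the 17 had adjusted p between 0.0698 and 0.335 in that fit.

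**Figure D1:**
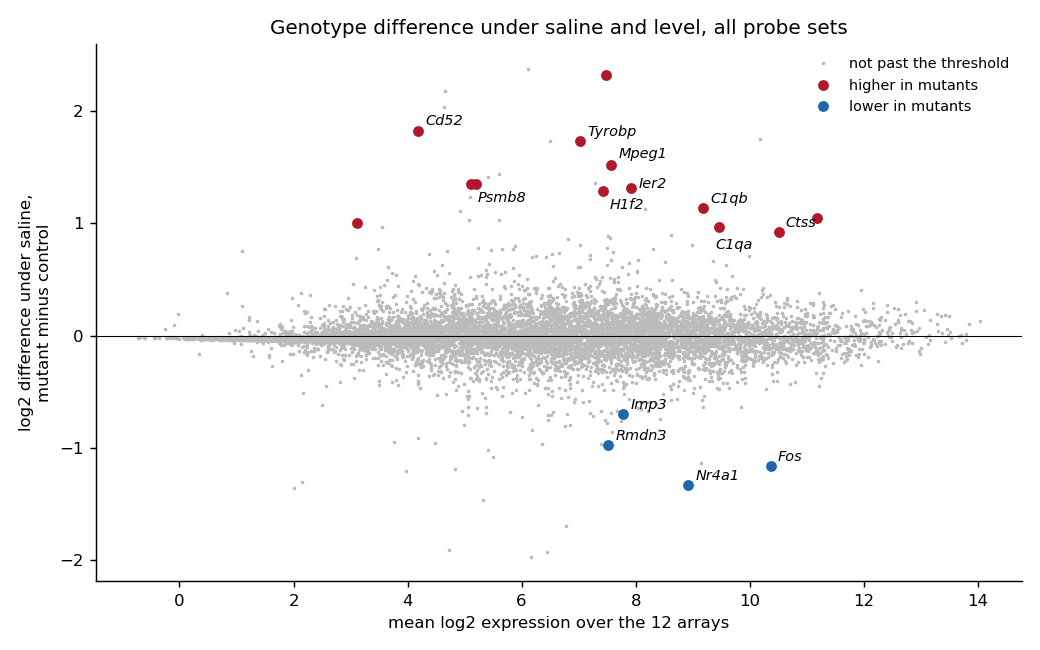
Log2 difference between mutant saline and control saline arrays (y axis) against the mean log2 level over the 12 arrays (x axis) for the 12422 probe sets. Red points mark the 13 probe sets that were higher in mutants and blue points the 4 that were lower, with names where a probe set has 1 gene symbol. Most probe sets lie near 0 at every level, and the called ones range from a difference of -1.33 to 2.32.

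Genes of microglia and macrophages were higher in the mutants at rest. Of 36 measured markers 6 rose and 0 fell, against 0.109% and 0.0485% of all 8251 genes, and 17 had groups that did not overlap with mutants higher, against 4.65% of all genes. The median difference over the 36 was 0.50 on the log2 scale (0.48 with replicates 2 and 3 alone), against -0.02 over all genes. The 6 that rose were Cd52, Tyrobp, Mpeg1, C1qb, C1qa and Ctss. The sum of the marker levels was 12.63 to 12.90 on the log2 scale in the mutant saline arrays, against 11.81 to 11.93 in the control saline arrays, so the groups did not overlap.

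Tyrobp, which encodes the signalling adaptor DAP12 of the receptor TREM2, had log2 levels of 7.79, 7.97 and 7.66 in mutant saline arrays against 6.05, 6.06 and 6.13 in control saline arrays. That is a 3.32-fold difference (log2 1.73, SE 0.17, adjusted p = 0.0039), and the lowest mutant pool lay far above the highest control pool. Mpeg1, which encodes the pore-forming protein perforin-2 of macrophages, stood at 8.30, 8.38 and 8.25 in mutant saline against 6.80, 6.83 and 6.75 in control saline arrays on the log2 scale. Its 2.86-fold difference (log2 1.52, SE 0.14, adjusted p = 0.0039) exceeded the spread in both groups many times over. A dimmer Mpeg1 probe set differed by 0.01 (SE 0.20). Cd52, a small surface glycoprotein of leukocytes, had log2 levels of 4.64, 5.35 and 4.03 in mutant saline against 2.93, 2.82 and 2.80 in control saline arrays. It rose 3.54-fold (log2 1.82, SE 0.27, adjusted p = 0.0341) with the widest spread among mutants of the genes called here (SD 0.66). Both Tyrobp and Mpeg1 passed with each of the 12 arrays left out. Cd52 lost its call without mutant saline replicate 1, any of the control saline arrays, mutant kainate replicate 2 or 3, or control kainate replicate 2 or 3 (adjusted p up to 0.194).

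The complement starter C1q, which microglia make in the brain, rose through both of its called chains. C1qb stood at log2 levels of 9.71, 9.65 and 9.63 in mutant saline against 8.58, 8.63 and 8.37 in control saline arrays, a 2.20-fold rise (log2 1.14, SE 0.13, adjusted p = 0.00809). C1qa stood at 10.16, 9.76 and 9.75 in mutant saline against 8.99, 8.93 and 8.83 in control saline arrays, a 1.96-fold rise (log2 0.97, SE 0.14, adjusted p = 0.0283). The third chain, C1qc, averaged 8.63 ± 0.34 in mutant saline against 7.50 ± 0.32 in control saline arrays on the log2 scale (SD, n = 3 each) and did not pass (log2 difference 1.13, SE 0.21, adjusted p = 0.129). All 3 chains thus had groups that did not overlap. C1qb passed with every array left out, while C1qa lost its call without any of the 6 saline arrays, mutant kainate replicate 3 or control kainate replicate 3 (adjusted p up to 0.193). Over the whole complement list, of 26 complement genes 2 rose and 0 fell, against 0.109% and 0.0485% of all genes. In this list 5 had non-overlapping groups with mutants higher (4.65% of all genes did), and the median difference was -0.01 on the log2 scale. Of the 26 genes 16 lay below the median level of the array.

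The remaining 30 microglial markers did not pass, and of all 36 markers 28 had a positive difference. Values follow for some of the 30, among them those with the largest differences. Ly86, a partner of a Toll-like receptor relative, differed by 1.73 on the log2 scale (SE 0.54, adjusted p = 0.985), Cyba, a subunit of the phagocyte oxidase, by 1.44 (SE 0.42, adjusted p = 0.819) and Lyz2, lysozyme, by 1.42 (SE 0.31, adjusted p = 0.227), each with no overlap between groups. Cyba passed with the replicate block (adjusted p = 0.0123) and with the replicate 1 arrays set apart (adjusted p = 0.00657). Among markers chosen after their values were seen, the growth factor receptor gene Csf1r differed by 0.67, Cd53 by 0.78, the fractalkine receptor gene Cx3cr1 by 0.43 and the phagocyte integrin gene Itgam by -0.02, of which Cd53 passed in both of those fits. A dimmer Cyba probe set differed by 0.58 (SE 0.26) with overlapping groups. Of the 36 markers 15 lay below the median level of the array, where differences cluster near 0.

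**Figure D2:**
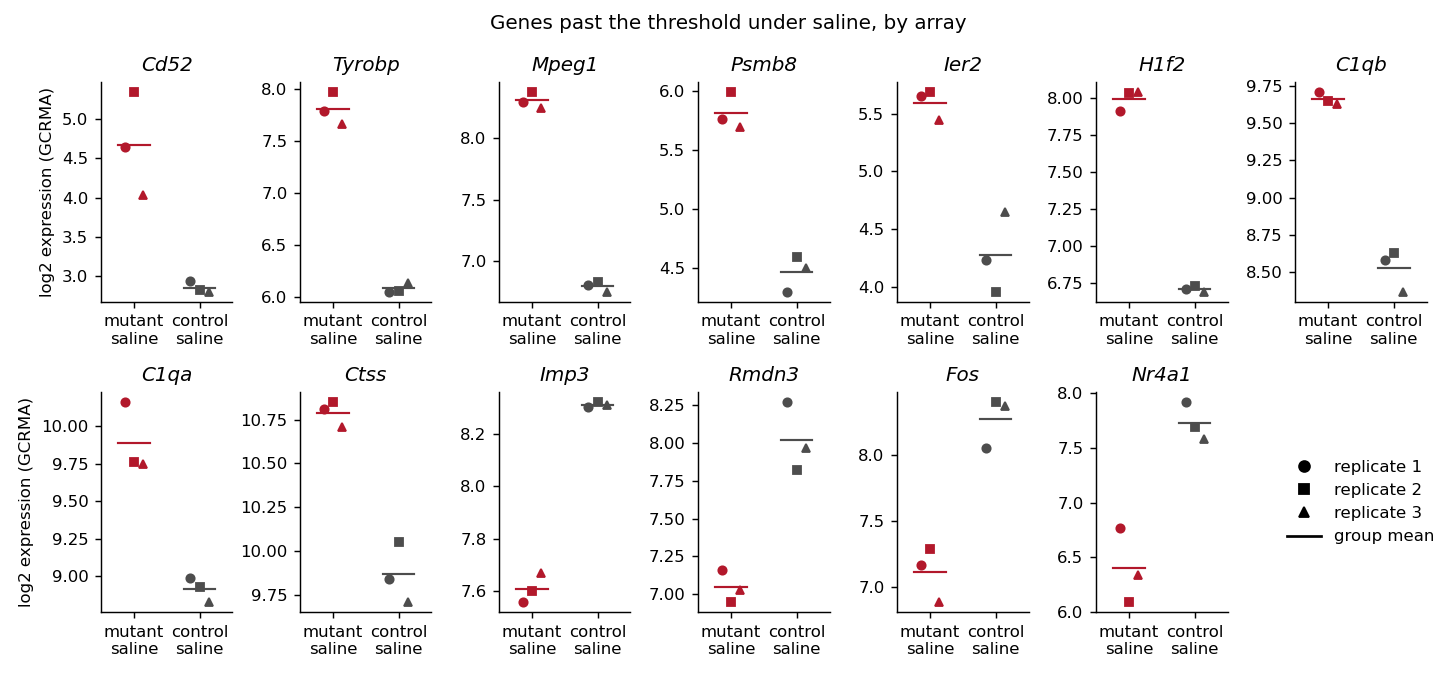
Log2 expression (y axes, which do not start at 0 and differ between panels) of the 13 single-symbol genes called under saline, with the 3 mutant saline arrays in red left of the 3 control saline arrays in grey. Marker shapes give the replicate number and lines the group means. In every panel the groups do not overlap, with 9 genes higher in mutants and Imp3, Rmdn3, Fos and Nr4a1 lower.

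Genes of lysosomes, the compartment in which phagocytes degrade what they engulf, shared the direction. Of 44 measured lysosomal genes 17 had mutants above controls with no overlap, against 4.65% of all genes, and none the reverse, against 3.9%. In this list 1 passed, against 0.109% of all genes called higher, and the median difference was 0.16 on the log2 scale (0.15 with replicates 2 and 3 alone). The gene that passed was Ctss, which encodes cathepsin S, a protease of antigen-presenting cells. Its log2 levels were 10.81, 10.85 and 10.71 in mutant saline against 9.84, 10.05 and 9.71 in control saline arrays, a 1.90-fold rise (log2 0.92, SE 0.14, adjusted p = 0.0374). The groups were apart by more than their spread, but the call was lost without any 1 of the 6 saline arrays, mutant kainate replicate 2, or control kainate replicate 2 or 3 (adjusted p up to 0.24). Ctsz, cathepsin Z, differed by 0.90 (SE 0.33, adjusted p = 1) and Cd68, a lysosomal glycoprotein of macrophages, by 1.11 (SE 0.45, adjusted p = 1), both with no overlap. Ctsd, Grn and Man2b1, chosen after their values were seen, differed by 0.63, 0.67 and 0.86 on the log2 scale, and Grn and Man2b1 passed with the replicate block and with the replicate 1 arrays set apart. The lysosomal and microglial lists share Ctss, Cd68 and Laptm5. The summed microglial level given above was higher in the same mutant arrays, and its part in the lysosomal, complement and antigen presentation differences was not tested.

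Psmb8, an interferon-inducible subunit of the immunoproteasome that shapes peptides for MHC class I, stood at log2 levels of 5.76, 5.99 and 5.69 in mutant saline against 4.30, 4.59 and 4.50 in control saline arrays. It rose 2.55-fold (log2 1.35, SE 0.17, adjusted p = 0.0126), and the groups were more than 1 log2 unit apart. The call was lost without mutant saline replicate 2, control saline replicate 1 or control saline replicate 3 (adjusted p up to 0.0721). Of 20 genes of antigen presentation, Psmb8 was the 1 that passed (0.109% of all genes were called higher). Of the 20, 7 had mutants above controls with no overlap (4.65% of all genes did) and none lay below. The median difference was 0.09. The MHC class II invariant chain gene Cd74 differed by 0.77 and the class I gene H2-D1 by 0.43, both chosen after their values were seen, and the immunoproteasome partners Psmb9 and Psmb10 by -0.03 and 0.09. Of 27 interferon response genes 0 passed in limma, 3 had an unadjusted p under 0.05 and 5 had non-overlapping groups with mutants higher (4.65% of all genes did). Irf1, an interferon-regulated transcription factor, differed by 0.30 (SE 0.09, adjusted p = 0.793).

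The chemokine genes Ccl9 and Ccl6 gave wide differences that did not pass. Ccl9 stood at log2 levels of 5.47, 5.85 and 5.29 in mutant saline against 2.80, 4.28 and 3.40 in control saline arrays (difference 2.04, SE 0.54, adjusted p = 0.555). Ccl6 stood at 5.38, 5.91 and 5.91 in mutant saline against 4.69, 4.65 and 4.76 in control saline arrays (difference 1.03, SE 0.19, adjusted p = 0.125). The groups did not overlap for either. Both encode chemokines that attract myeloid cells, and Ccl6 passed with the replicate block or with the replicate 1 arrays set apart. Of 47 chemokine, cytokine and receptor genes 0 passed in limma, 5 had an unadjusted p under 0.05, and 33 lay below the median level. In this list 5 (10.6%) had mutants above controls with no overlap, against 4.65% of all genes, and 0 lay below, against 3.9%. The median difference was -0.01 on the log2 scale, and 19 of the 47 differences were positive. The cytokine genes Tnf, Il1b and Il6, named after their values were seen, were among those near 0, at -0.05, -0.03 and -0.01.

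The smallest adjusted p under saline belonged to H1f2, which encodes a replication-dependent linker histone of the H1 family. Its log2 levels were 7.91, 8.03 and 8.04 in mutant saline against 6.71, 6.73 and 6.69 in control saline arrays, a 2.44-fold rise (log2 1.29, SE 0.07, adjusted p = 4.31e-05). The pools of each group lay within a narrow band. The call held with each array left out (adjusted p up to 0.000988), with replicates 2 and 3 alone (0.043) and in a test against a fold change of 1.5 (0.00881), which no other probe set passed. It was lost in the 6 saline arrays with the replicate block (adjusted p = 0.0697), a fit chosen after seeing the data. Among other H1 genes, named after their values were seen, H1f1 differed by -0.03, H1f3 by -0.01, H1f4 by -0.04, H1f5 by -0.02, H1f6 by -0.01 and H1f10 by -0.32 on the log2 scale. Of 17 histone genes 1 rose and 0 fell, against 0.109% and 0.0485% of all genes. Mutants lay above controls with no overlap for 3 of them (17.6%), against 4.65% of all genes. Of the 17 genes 11 lay below the median level of the array. Many histone genes are near-identical copies of each other, so which of them a probe set reads is less certain than for single genes.

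Among activity-regulated genes the mutants at rest had less Fos and Nr4a1 RNA and more Ier2 RNA. The promoters of the genes that bear on this, with that of C1qb for comparison, are given from RefSeq on GRCm38.p6, from 250 bases before to 50 after the transcription start, 5′ to 3′ on the gene's strand. Capitals mark TGACG or CGTCA, the short form of the cAMP response element read on either strand. The windows are chr12:85473640-85473939 on the plus strand for Fos, chr15:101266596-101266895 on the plus strand for Nr4a1, chr2:57123954-57124253 on the minus strand for Nr4a2 and chr4:136886151-136886450 on the minus strand for C1qb.
Fos: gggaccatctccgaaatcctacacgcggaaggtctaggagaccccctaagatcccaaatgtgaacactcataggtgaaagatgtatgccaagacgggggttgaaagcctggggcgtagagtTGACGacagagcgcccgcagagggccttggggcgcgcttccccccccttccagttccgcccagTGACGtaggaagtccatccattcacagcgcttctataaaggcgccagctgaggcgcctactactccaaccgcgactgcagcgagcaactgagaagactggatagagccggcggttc
Nr4a1: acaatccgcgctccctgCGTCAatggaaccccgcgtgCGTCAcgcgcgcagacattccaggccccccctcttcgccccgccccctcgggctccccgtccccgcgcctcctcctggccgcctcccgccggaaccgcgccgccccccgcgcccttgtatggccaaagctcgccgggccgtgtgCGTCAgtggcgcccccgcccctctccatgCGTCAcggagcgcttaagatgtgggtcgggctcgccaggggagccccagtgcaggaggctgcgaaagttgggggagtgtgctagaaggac
Nr4a2: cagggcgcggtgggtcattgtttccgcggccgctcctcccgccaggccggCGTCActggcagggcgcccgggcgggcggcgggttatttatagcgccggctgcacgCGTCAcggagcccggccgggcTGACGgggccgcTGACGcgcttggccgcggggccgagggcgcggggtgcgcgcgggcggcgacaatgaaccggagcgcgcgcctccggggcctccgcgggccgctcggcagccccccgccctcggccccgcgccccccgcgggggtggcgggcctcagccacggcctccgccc
C1qb: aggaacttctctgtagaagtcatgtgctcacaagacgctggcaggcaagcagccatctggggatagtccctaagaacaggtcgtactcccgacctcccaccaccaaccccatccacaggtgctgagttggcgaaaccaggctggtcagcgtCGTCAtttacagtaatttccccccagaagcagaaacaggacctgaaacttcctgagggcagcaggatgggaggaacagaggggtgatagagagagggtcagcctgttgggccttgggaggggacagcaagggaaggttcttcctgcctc

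The Fos window held 2 short sites, which began 129 and 66 bases before the start, and the Nr4a1 window held 4, beginning 233, 213, 69 and 40 bases before it. The Nr4a2 window held 4 (200, 144, 123 and 111 bases before the start) and the C1qb window 1 (99 bases before it). None of these 4 windows held the full TGACGTCA, in which both short sites overlap. Among 8408 promoters of 6572 genes on the array 28.5% held 1 or more short sites, 7.81% held 2 or more, 0.452% held 4 or more and 2.6% held TGACGTCA. Of the 13 called genes 9 had a promoter in the table: a short site stood in 1 of 5 that were higher in mutants (C1qb) and in 3 of 4 that were lower (Fos, Nr4a1 and Rmdn3, not Imp3). These matches describe letters in a window and were not tested as binding sites.

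Fos, a component of the AP-1 transcription factor, stood at log2 levels of 7.17, 7.29 and 6.89 in mutant saline against 8.05, 8.40 and 8.37 in control saline arrays. Every mutant pool lay below every control pool, and the mutant level was 0.45 times the control level (log2 difference -1.16, SE 0.13, adjusted p = 0.00809). The call held with each array left out (adjusted p up to 0.0496), but not in a fit of the 6 saline arrays alone (adjusted p = 0.0662). Nr4a1, an orphan nuclear receptor, stood at 6.77, 6.09 and 6.34 in mutant saline against 7.92, 7.69 and 7.58 in control saline arrays, which is 0.40 times the control level (log2 difference -1.33, SE 0.17, adjusted p = 0.0126). Its groups did not overlap either, and same-numbered pools differed by -1.60 to -1.15. The Nr4a1 call was lost without mutant saline replicate 3 or control saline replicate 1 or 2 (adjusted p up to 0.0681), and in the 6 saline arrays alone it had an adjusted p of 0.0793. Nr4a2, the related receptor needed for dopamine neuron development, had log2 levels of 4.13, 5.19 and 5.47 in mutant saline against 6.28, 7.08 and 7.21 in control saline arrays. With no overlap but a wide spread it did not pass (difference -1.93, SE 0.36, adjusted p = 0.129), and its dimmer probe set differed by -1.46 (SE 0.49). It passed with the replicate 1 arrays set apart.

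Ier2, an early response gene that encodes a nuclear protein, went the other way. Its log2 levels were 5.65, 5.69 and 5.45 in mutant saline against 4.23, 3.96 and 4.65 in control saline arrays, a 2.49-fold rise (log2 1.32, SE 0.18, adjusted p = 0.0205). The groups did not overlap, and the mutant pools spread less (SD 0.13) than the control pools (SD 0.35). The call was lost without any of the mutant saline arrays or control saline replicate 1 or 2 (adjusted p up to 0.131) and after centring each array on its median (0.0792).

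Most other activity-regulated genes did not pass at rest. Among 49 immediate early genes there was 1 rise and there were 2 falls, against 0.109% and 0.0485% of all genes. The other 46 did not pass. In this list 6 (12.2%) had mutants above and 8 (16.3%) below controls with no overlap, against 4.65% and 3.9% of all genes, and the median difference was -0.03 on the log2 scale. Of 39 known CREB target genes 0 rose, 2 fell (Fos and Nr4a1) and 37 did not pass, where 0.0485% of all genes fell. Groups did not overlap for 8 that were lower in mutants (20.5%), against 3.9% of all genes. The same held for 3 that were higher (7.69%), against 4.65% of all genes. Penk, the enkephalin precursor and a textbook CREB target, stood at 8.38, 7.63 and 7.47 in mutant saline against 8.75, 8.58 and 8.67 in control saline arrays (log2 difference -0.84, SE 0.20, adjusted p = 0.413), and passed without mutant saline replicate 1. The other Penk probe sets, at percentiles 66.9 and 30.3 of the mean levels, differed by -0.10 (SE 0.11) and -0.03 (SE 0.14) with overlapping groups. Further targets named after their values were seen lay close to 0, with log2 differences of -0.08 for the neurotrophin gene Bdnf, -0.11 for Egr1 and 0.08 for Sst, the somatostatin gene. The 2 probe sets of Junb, also named after its values were seen, differed by -0.33 (SE 0.17) and -0.71 (SE 0.27, unadjusted p = 0.0246), each with an adjusted p of 1. Of 12 genes of the CREB and ATF family and its coactivators 0 passed in limma and 1 had an unadjusted p under 0.05: Fhl2, which encodes a LIM protein known as a CREB and CREM coactivator, differed by 0.81 (SE 0.29, adjusted p = 1). Of 25 cAMP signalling genes 0 passed and 1 had an unadjusted p under 0.05, Pkia, an inhibitor of protein kinase A, at -0.38 (SE 0.13, adjusted p = 1), while its other probe set differed by -0.26 (SE 0.27).

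**Figure D3:**
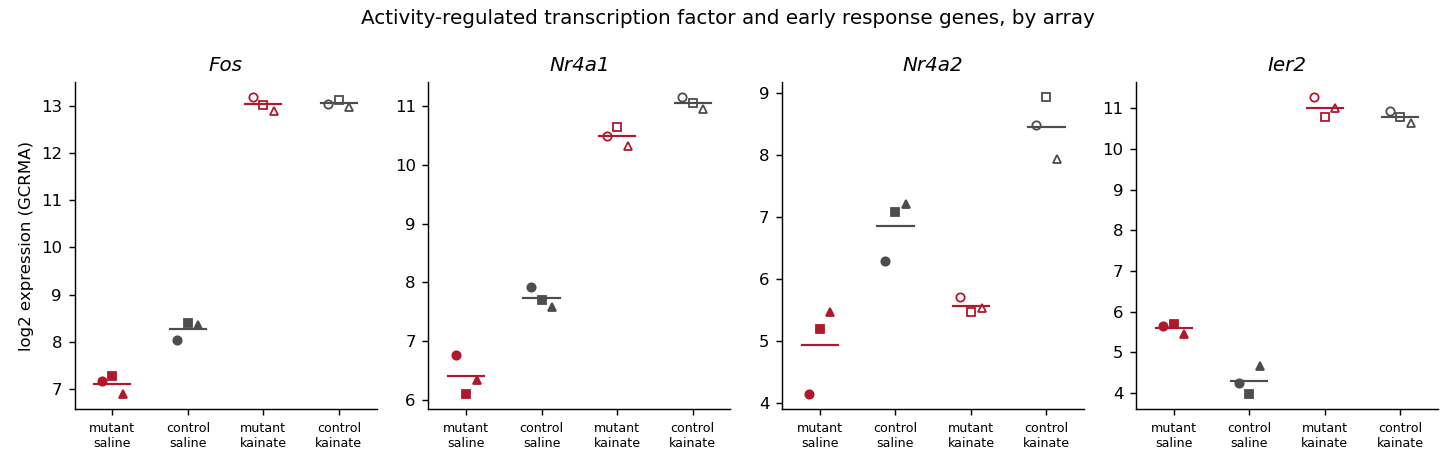
Log2 expression (y axes, which do not start at 0) of Fos, Nr4a1, Nr4a2 and Ier2 by array, with mutants in red left of controls in grey, first the saline arrays as filled and then the kainate arrays as open symbols. Circles, squares and triangles are replicates 1, 2 and 3, and lines are group means. The genotypes are apart under saline in all 4 panels, and under kainate for Nr4a1 and Nr4a2 but not for Fos and Ier2.

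Rmdn3 and Imp3 were the other genes that fell. Rmdn3, which encodes a mitochondrial outer membrane protein that tethers mitochondria to the endoplasmic reticulum, had log2 levels of 7.16, 6.95 and 7.03 in mutant saline against 8.27, 7.82 and 7.97 in control saline arrays, or 0.51 times the control level (log2 difference -0.97, SE 0.14, adjusted p = 0.0224). Imp3, a component of the small nucleolar complex that processes ribosomal RNA, had 7.56, 7.60 and 7.67 in mutant saline against 8.30, 8.32 and 8.31 in control saline arrays, or 0.62 times the control level (log2 difference -0.70, SE 0.11, adjusted p = 0.0497). In both genes the pools of a group lay closer to each other than to any pool of the other group. The Rmdn3 call was lost without any of the mutant saline arrays or control saline replicate 1 or 3 (adjusted p up to 0.145). The Imp3 call was lost without any 1 of the 6 saline arrays, mutant kainate replicate 1 or 3, or control kainate replicate 2 (adjusted p up to 0.274), and with the replicate number as a block (0.0603). Imp3 was the only 1 of the 17 calls that the block ended.

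The 4 called probe sets annotated with several genes were all higher in mutants. Probe set 103033_at had the largest difference of all calls, with log2 levels of 9.15, 8.22 and 8.11 in mutant saline against 6.58, 5.80 and 6.12 in control saline arrays (5.00-fold, log2 2.32, SE 0.30, adjusted p = 0.0176). Probe set 93023_f_at differed by 1.35 (SE 0.18, adjusted p = 0.0198), 93833_s_at by 1.04 (SE 0.11, adjusted p = 0.00512) and 102914_s_at by 1.00 (SE 0.16, adjusted p = 0.0464). Which of the annotated genes each of them reads cannot be told from the array. Without single arrays their adjusted p reached 0.0978 for 103033_at (control saline replicate 3; the call was also lost without mutant saline replicate 2 or control saline replicate 2), 0.124 for 93023_f_at (mutant saline replicate 2; also without mutant saline replicate 1 or control saline replicate 2 or 3) and 0.228 for 102914_s_at (mutant saline replicate 2; lost in 9 of 12 such fits). The call of 93833_s_at held in all 12.

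Among genes that did not pass, Gfap, the intermediate filament of astrocytes and a classical sign of astrocyte reactivity, had one of the largest differences. Its log2 levels were 11.48, 10.62 and 10.32 in mutant saline against 9.69, 8.64 and 8.85 in control saline arrays (difference 1.75, SE 0.30, adjusted p = 0.0811). The groups did not overlap, the replicate 1 pool was the highest of each group, and the dimmer Gfap probe set differed by 1.36 (SE 0.38). Gfap passed with the replicate block, with the replicate 1 arrays set apart, with replicates 2 and 3 alone and without control saline replicate 1. General astrocyte markers moved little: 13 of 13 had positive differences, with a median of 0.15. In 1 of them (7.69%, against 4.65% of all genes) mutants were higher with no overlap: Apoe, the apolipoprotein, at 0.30 (SE 0.10). In limma 0 of the 13 passed, and 1 had an unadjusted p under 0.05. Of 27 genes of reactive astrocytes 0 passed and 3 had an unadjusted p under 0.05. Mutants lay above controls with no overlap for 5 of the 27 (18.5%), against 4.65% of all genes, and the median was 0.02. In this list S100a6, a calcium-binding protein, stood at 9.88, 9.57 and 9.23 in mutant saline against 8.71, 8.88 and 8.67 in control saline arrays (difference 0.81, SE 0.28, adjusted p = 1). Vim, named after its value was seen, differed by -0.03.

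Genes of cholesterol synthesis and uptake had mostly negative differences without passing. Of 17 measured genes 7 had mutants below controls with no overlap, against 3.9% of all genes, and none lay above. The median difference was -0.28 on the log2 scale (-0.33 with replicates 2 and 3 alone), 0 passed in limma and 4 had an unadjusted p under 0.05. Msmo1, a sterol C4 oxidase, stood at log2 levels of 8.74, 8.94 and 8.93 in mutant saline against 9.30, 9.48 and 9.53 in control saline arrays (difference -0.57, SE 0.12, adjusted p = 0.227). Cyp51, the lanosterol demethylase, stood at 6.21, 6.21 and 6.20 in mutant saline against 6.41, 6.64 and 6.58 in control saline arrays (difference -0.34, SE 0.08, adjusted p = 0.432). The 5 others with no overlap, named after their values were seen, were Mvd (-0.47), Sc5d (-0.44), Hmgcs1 (-0.40), Mvk (-0.38) and Sqle (-0.38), the last encoding squalene epoxidase. Genes of cholesterol efflux and turnover lay the other way: 3 of 11 (27.3%) had mutants above controls with no overlap, against 4.65% of all genes. Their median was 0.16, and 0 passed in limma (3 with an unadjusted p under 0.05). Abca1, the cholesterol exporter, had 8.28, 7.87 and 8.01 in mutant saline against 7.65, 7.49 and 7.31 in control saline arrays (difference 0.57, SE 0.18, adjusted p = 1). Summed log2 levels of the astrocyte markers, which include Apoe, were 14.82 to 15.07 in mutant saline against 14.54 to 14.89 in control saline arrays, and their part in the cholesterol genes' differences was not tested.

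Markers of CA1 pyramidal neurons, of which few were measured, had negative differences without passing. Among the 5 markers 3 had mutants below controls with no overlap, against 3.9% of all genes, with a median of -0.53 on the log2 scale (-0.69 with replicates 2 and 3 alone, and -0.25 without control saline replicate 2). Wfs1, a membrane protein of the endoplasmic reticulum enriched in CA1, stood at 8.84, 8.10 and 8.47 in mutant saline against 9.46, 9.66 and 9.69 in control saline arrays (difference -1.14, SE 0.20, adjusted p = 0.097), and passed with the replicate 1 arrays set apart. Man1a, a mannosidase, had 6.99, 7.65 and 7.68 in mutant saline against 7.68, 8.41 and 8.29 in control saline arrays (difference -0.69, SE 0.23, adjusted p = 1), so its highest mutant pool nearly met its lowest control pool, and its other probe set differed by -0.13 (SE 0.32). In limma 0 of the 5 passed, and 3 had an unadjusted p under 0.05. Of 7 CA3 and CA2 markers 1 lay above and 1 below with no overlap (14.3% each, median -0.03). Of 10 dentate granule markers 1 lay above (10%, median 0.03), and of 18 interneuron markers 2 lay below (11.1%, median -0.01). Over all genes 4.65% lay above and 3.9% below. Bok, a member of the Bcl2 family, gave the CA3 value that lay above (0.77, SE 0.16, adjusted p = 0.181), and Rgs14, a regulator of G protein signalling enriched in CA2, the one below (-0.40, SE 0.13, adjusted p = 1).

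Markers of other cells that a dissection could bring in did not separate the groups. Of 17 markers of endothelium and pericytes, 3 of blood, 7 of choroid plexus and 6 of striatum and thalamus, none had groups without overlap in either direction. Their median differences were 0.05, -0.07, -0.02 and 0.06 on the log2 scale. The summed log2 level of blood markers was 10.64 to 11.13 in mutant saline against 10.98 to 11.07 in control saline arrays, and that of endothelium and pericyte markers 11.03 to 11.15 in mutant saline against 10.78 to 11.21 in control saline arrays. Of 12 oligodendrocyte markers 2 lay below with no overlap (16.7%, median -0.06). Of 16 general neuron markers 1 lay above (6.25%) and 2 below (12.5%, median -0.14). Over all genes 4.65% lay above and 3.9% below. The sex makeup of the pools differed within groups: Xist, transcribed from the inactive X of females and named after its values were seen, had log2 levels of 3.96, 7.59 and 5.01 in mutant saline against 3.65, 5.98 and 3.23 in control saline arrays, and Eif2s3y, on the Y chromosome, had 5.62, 5.05 and 6.80 in mutant saline against 6.34, 5.95 and 7.35 in control saline arrays. The groups overlapped for both, and for all 7 sex-linked genes. Within same-numbered pairs, mutant saline minus control saline was 0.31 to 1.79 for Xist and -0.90 to -0.55 for Eif2s3y, so that Xist was higher and Eif2s3y lower in the mutant pool of 3 of 3 pairs. The labels do not pair pools by number and the groups overlapped, so a difference in sex makeup between genotypes was not established. The part of sex makeup in the differences was not tested.

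In the remaining lists 0 members passed in limma, and no more than 3 of each had an unadjusted p under 0.05. Over all genes 4.65% lay above and 3.9% below with no overlap. Non-overlapping members numbered 2 above (8.7%) and 3 below (13%) among 23 neuropeptides and granins. They numbered 2 (6.25%) and 1 (3.12%) among 32 apoptosis genes. There were 1 and 1 among 29 heat shock and unfolded protein genes (3.45% each) and among 14 glucocorticoid response genes (7.14% each). None lay above and 1 lay below among 13 glutamate receptor (7.69%) and 13 GABA and glycine receptor genes (7.69%). The same held for 22 voltage-gated channel (4.55%) and 17 circadian clock genes (5.88%). None of 12 neurotrophin and growth factor genes lay either way. Bcl2l2, which encodes the survival protein Bcl-w, stood at 7.43, 7.69 and 7.51 in mutant saline against 8.11, 8.42 and 8.36 in control saline arrays (log2 difference -0.76, SE 0.17, adjusted p = 0.301), and passed with the replicate block (0.0306) and with the replicate 1 arrays set apart (0.038). Bhlhe40, a transcription factor of the clock, differed by -0.45 (SE 0.13, adjusted p = 0.667) and Cck, the cholecystokinin gene, by -0.37 (SE 0.11, adjusted p = 0.835). Of 6 ubiquinone synthesis genes Coq7, the hydroxylase, stood at 7.99, 8.05 and 8.15 in mutant saline against 7.22, 7.24 and 7.12 in control saline arrays (difference 0.87, SE 0.17, adjusted p = 0.137), and passed in the 6 saline arrays alone. Outside the lists, Tmem176a, a membrane protein gene, differed by 0.89 (SE 0.15, adjusted p = 0.0811) and Rtl6, derived from a retrotransposon, by -0.97 (SE 0.16, adjusted p = 0.0811), both with no overlap. Nudt19 differed by -1.69 (SE 0.47, adjusted p = 0.646) and Zfp612 by -1.91 (SE 0.60, adjusted p = 1). With the replicate 1 arrays set apart Tmem176a, Rtl6 and Nudt19 passed.

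**Figure D4:**
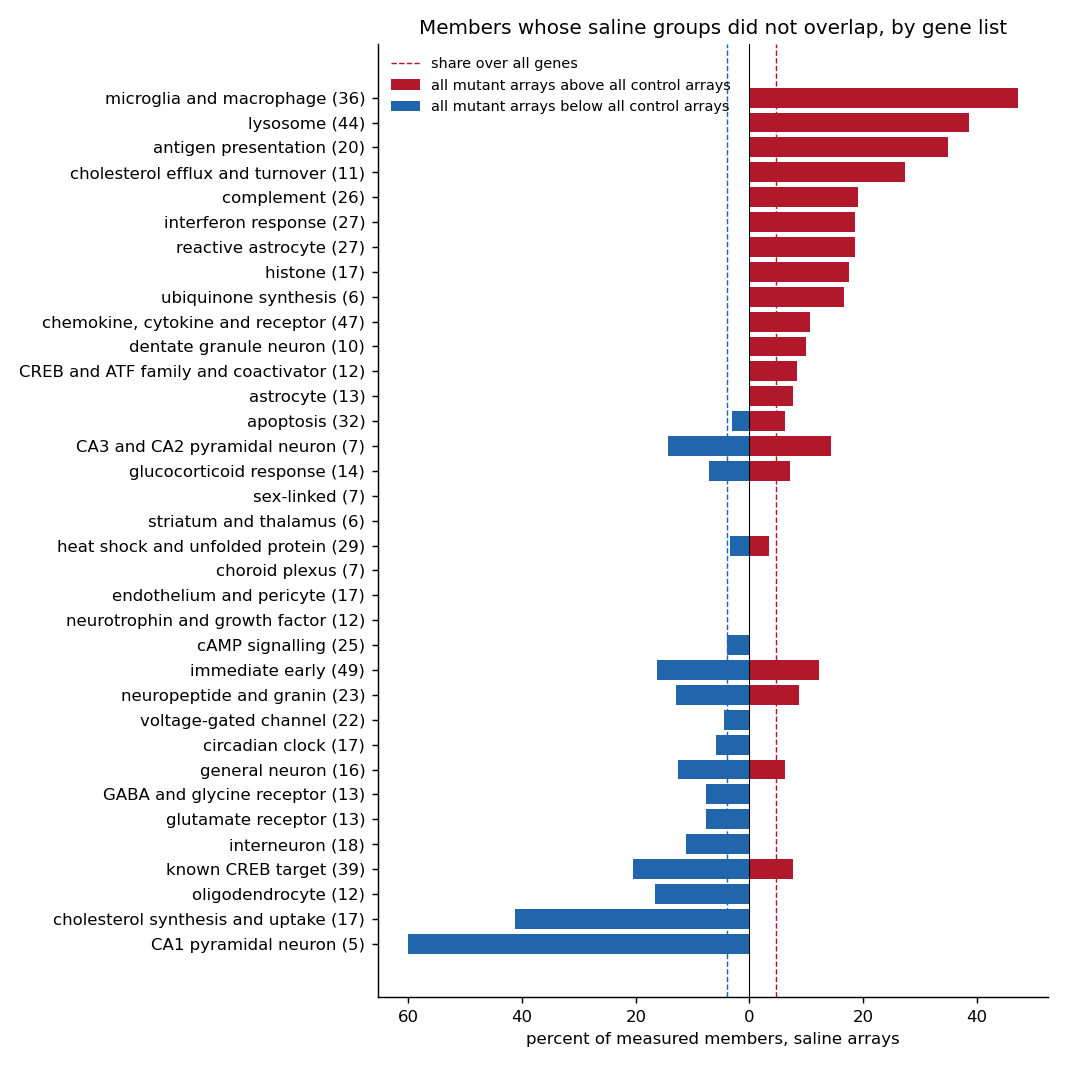
Share of the measured members whose saline groups did not overlap, for each of the 36 gene lists except blood, which had only 3 measured members. Members with all mutant arrays above all control arrays are to the right in red and those below to the left in blue, as percent of members. Numbers in brackets are members measured, and dashed lines mark the share over all 8251 genes (4.65% above, 3.9% below). The microglial (47.2%) and lysosomal (38.6%) lists lie at the top and the cholesterol synthesis (41.2%) and CA1 (60%, of 5 genes) lists at the bottom.

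The kainate arrays gave a second reading of the genotype difference in other animals. This reading was not fully independent, since the spread of the kainate arrays entered the fit that made the saline calls. In a limma fit of the 6 saline arrays alone 8 of the 17 were called. All 17 saline calls had the same sign under kainate, 15 had groups that did not overlap in the same direction, and 11 passed. Over all probe sets 0.354% passed under kainate, and the groups did not overlap for 4.03% with mutants higher and 4.97% with mutants lower. Among the 13 higher in mutants 10 passed again (0.217% of all probe sets passed with mutants higher), and the median difference was 1.21 under kainate beside 1.32 under saline on the log2 scale. Among the 4 lower 1 passed again, Rmdn3 at -0.88 (adjusted p = 0.0277), and the median difference was -0.57 under kainate beside -1.07 under saline. These tests share an estimate of the spread over all 12 arrays. In a fit of the 6 kainate arrays alone 2 of the 17 passed and 15 had an unadjusted p under 0.05. Across all 12422 probe sets the saline and kainate differences had a Pearson correlation of 0.465, and of 0.523 over the 6211 above the median level, where probe sets are not independent replicates.

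Microglial genes and H1f2 were higher in mutants under kainate too. H1f2 differed by 1.27 under kainate (adjusted p = 4.76e-05), Tyrobp by 1.80 (adjusted p = 0.00286), Mpeg1 by 1.35 and C1qb by 1.21 (adjusted p = 0.00444 for both). Cd52 differed by 2.82 under kainate (adjusted p = 0.00286), which was 1.00 more than under saline (SE 0.38), a difference that did not pass (adjusted p = 0.939). The median over the 36 microglial markers was 0.46 under kainate, with 8 called higher and 19 not overlapping with mutants higher. The median over 44 lysosomal genes was 0.26, with 5 called higher. Over all 8251 genes the kainate median was -0.04, with 23 called higher and 416 not overlapping with mutants higher.

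Fos and Ier2 passed at rest, and their genotypes overlapped after kainate. In the kainate arrays Fos stood at log2 levels of 13.19, 13.01 and 12.89 in mutants against 13.04, 13.13 and 12.98 in controls, and Ier2 at 11.29, 10.78 and 11.00 in mutants against 10.94, 10.78 and 10.65 in controls. The genotype difference of Fos was 1.14 higher under kainate than under saline (SE 0.19, adjusted p = 0.333) and that of Ier2 1.08 lower (-1.08, SE 0.25, adjusted p = 0.939). Nr4a1 stood at 10.49, 10.65 and 10.32 in mutant kainate against 11.16, 11.06 and 10.95 in control kainate arrays, with no overlap and a difference of -0.57 (adjusted p = 0.428). Nr4a2 stood at 5.70, 5.47 and 5.52 in mutant kainate against 8.48, 8.94 and 7.94 in control kainate arrays, a difference that passed (-2.89, adjusted p = 0.00989). For none of the 17 did the test of the difference between treatments pass in limma. Over all probe sets 0 (0%) passed that test, and 107 had an unadjusted p under 0.05, while array weights called 8 and the fit without control kainate replicate 3 called 5. The unadjusted count was 320 without control kainate replicate 1 and 423 without control kainate replicate 2. In the fit of all arrays, effects that passed under only 1 treatment were not shown to differ between treatments.

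**Figure D5:**
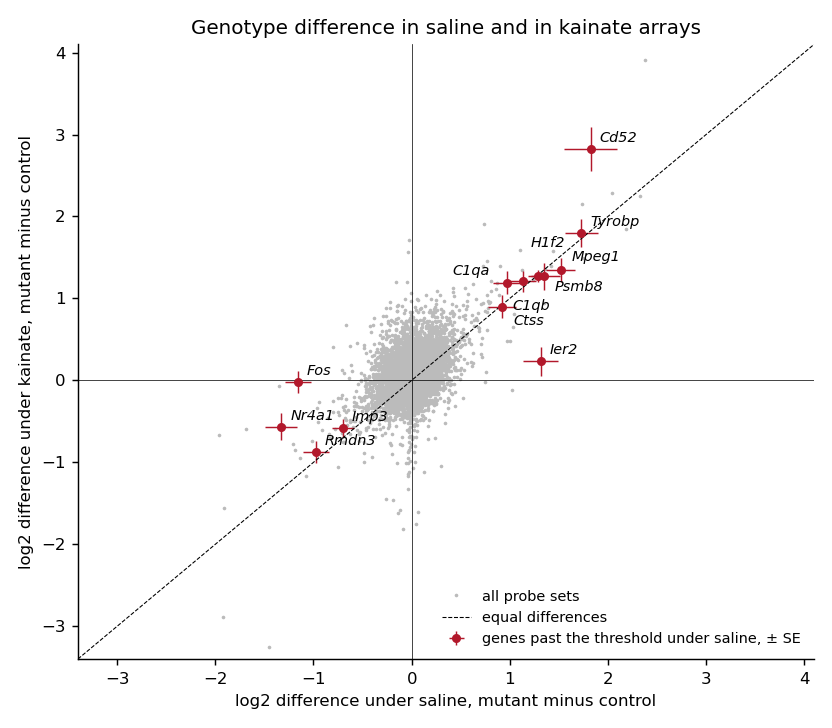
Log2 difference between mutant and control arrays under saline (x axis) and under kainate (y axis) for all 12422 probe sets in grey and for the 13 single-symbol genes called under saline in red, with bars of 1 SE and a dashed line of equal differences. Tyrobp, Mpeg1, H1f2 and Rmdn3 lie near the line, while Fos and Ier2 lie near a kainate difference of 0.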

How the data were processed

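Total RNA of mouse hippocampus was hybridised to Affymetrix MG-U74A arrays, with 3 animals pooled per array and 3 arrays in each of 4 groups. The deposited values are log2 expression levels that the authors made with GCRMA in R 2.4.1, per the submitters' processing notes. GCRMA subtracts background by probe sequence, normalises between arrays and summarises probe sets, which can compress the differences of dim probe sets; its version and a joint run of all arrays are not given in the sources used here. Arrays give no counts, so their number limits the precision. The table held 12488 probe sets with values from -0.78 to 14.82. Of the 12422 tested, without a filter on level, 10833 had 1 symbol in the platform annotation, 396 several and 1193 none, and 10817 matched RefSeq by Entrez identifier.

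The comparison used limma 3.58.1 (R 4.3.3) with 1 mean per group over all 12 arrays (8 residual and 2.48 prior degrees of freedom), two-sided, with Benjamini-Hochberg adjustment over all 12422 probe sets and a threshold of 0.05. The fit was tested on simulated data with independent noise for each probe set and array. That noise lacked the deviation that the replicate 1 arrays shared, so the fit was not tested under it. A gene in a list is represented by its brightest probe set. Creb1 and Crem, up to 20 called genes a direction with no overlap, up to 4 called or 2 uncalled members a list, and up to 10 uncalled genes a direction above the median level with no overlap were named, and others are said to be chosen after their values were seen. The members, the 36 lists and the tests were chosen with earlier results of these data known. No test of a list was made. The main fit had no replicate block, and a block by replicate number was an alternative. Every same-numbered saline pair deviated together (correlations over 0.1, 0.583 to 0.848). Crossed replicate 2 and 3 saline arrays did so too (0.522 to 0.568), so pairing by number was not established. The alternatives were the replicate block, replicate 1 arrays set apart, replicates 2 and 3 alone, only the 6 saline arrays, quantile normalisation, median centring, array weights, a robust prior with a trend on intensity, only probe sets brighter than the median, probe sets averaged per gene, a fold change of at least 1.5 and each array left out. Promoters came from RefSeq (GRCm38.p6).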

Additional observations from a re-analysis of the deposited data

How the results depend on the processing

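Under saline 17 probe sets passed in limma (13 higher, 4 lower). The count was 30 (21 higher, 9 lower) with the replicate block, 38 (23 and 15) with the replicate 1 arrays set apart, 680 (309 and 371) with array weights, 11 (7 and 4) with probe sets averaged per gene, 2 (2 and 0) with replicates 2 and 3 only, and 1 (1 and 0) against a fold change of at least 1.5. Quantile normalisation gave 13 (7 and 6), of which 7 were among the 17, median centring 12 (10 and 2), all among them, and the 6 saline arrays alone 13 (9 and 4), of which 8 were. Chosen after seeing the data, the 4 saline arrays of replicates 2 and 3 gave 5 (3 and 2), and the 6 saline arrays with the replicate block 1 (1 and 0). Leaving out each array gave 8 to 20 calls, 6 to 15 higher and 1 to 6 lower. Array weights ran from 0.0321 to 6.17, so that few arrays carried that fit. Apart from Imp3, the replicate block ended no call.

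Calls that passed again under kainate (11) numbered 21 with the block, 67 with array weights, 7 averaged per gene, 25 with the replicate 1 arrays set apart, 2 with replicates 2 and 3 only, 1 against a fold of 1.5, and 5 to 12 with each array left out. The test of the difference between treatments called 1 of the saline calls with array weights and 0 otherwise. Called microglial markers (6) numbered 2 after quantile normalisation, 16 with array weights, 0 with replicates 2 and 3 only or a fold of 1.5, 1 in each fit chosen after seeing the data, and 3 to 6 with each array left out. The 2 CREB targets and 3 immediate early genes became 0 and 0 in the 6 saline arrays, with replicates 2 and 3 only, against a fold of 1.5 and in both fits chosen later, 6 and 11 with array weights, and 1 to 3 for both with each array left out. Median log2 differences moved to 0.78 (above the median level) and 0.36 (averaged) for microglia, 0.12 (averaged) for lysosomes and 0.43 (above the median level) for antigen presentation. With each array left out they ran from 0.11 to 0.22 for lysosomes, 0.01 to 0.13 for antigen presentation, -0.66 to -0.25 for CA1 and 0.10 to 0.17 for astrocytes. The log2 difference changed sign for Hba-a1 (-0.07, and -0.16 to 0.10 with each array left out, 0.10 without mutant saline replicate 2) and Folr1 (-0.30, and 0.04 with replicates 2 and 3, alone or in saline arrays only). The cause was not tested. Probe sets near background, such as those of Creb1, limit what can be seen.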

Other observations

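Genes with a log2 difference of at least 0.5 and no overlap under saline were counted by chromosome, over the brightest probe set of each gene, and 95 of all 8237 (1.15%) reached it. As a description with no test, the share was highest on chromosome 18 (4 of 186 genes, 2.15%) and chromosome 4 (10 of 497, 2.01%), and none of 259 genes on the X chromosome reached it. Of the 44 probe sets called under kainate, read in the saline arrays, 41 had the same sign, 35 had groups that did not overlap in the same direction, and 11 passed under saline.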
